A study of Arabidopsis thaliana with 12 samples.

Results

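The genes described here answered green light in both genotypes and started from nearly the same dark level on a log2 scale with 1 FPKM added. They were chosen from the measured values. A gene had to be listed for both genotypes, the log2 of its group mean plus 1 had to be higher in green light than in the dark by at least 1 in BES1-RNAi and in wild type, and the dark groups had to differ by no more than 0.3. Of 1731 genes listed for either genotype, 633 were listed for both, and 85 of these met the rule. Values were FPKM, in which fragments are divided by transcript length and by the library's mapped total, so that levels of different genes are given per length.

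The samples were whole Arabidopsis thaliana seedlings, 3 days old and grown in the dark. The first genotype was BES1-RNAi, a line with an RNA interference transgene against the transcription factor gene BES1, sampled after green light given without a break for 1 h (10 µmol m-2 s-1) and sampled in the dark. The other genotype was wild type, sampled after the same green light and in the dark. Each of the 4 groups had 3 libraries. The labels give neither the promoter of the transgene nor the number of independent lines, and BES1 was not analysed here, which leaves the silencing unchecked. Nothing in the labels says that the libraries of a group came from separate sowings, and p-values therefore measure only the spread among these libraries. In whole seedlings, fewer cells of a type and less RNA per cell cannot be told apart.

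As background, seedlings that germinate in the dark lengthen their hypocotyl and keep their cotyledons closed and pale, and light starts de-etiolation, in which growth slows and chloroplasts form. Light absorbed by phytochromes and cryptochromes removes PIF factors and lets factors such as HY5 build up, and both kinds bind short promoter elements with an ACGT core or the G-box. BES1 is activated by brassinosteroids, steroid hormones that promote elongation, and acts with PIF factors at many of the same genes.

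The tables hold a selection of genes chosen by a filter that the sources used here do not give, and sequencing depth is unknown. Spearman correlations between libraries of the same group ranged from 0.984 to 0.994 across the 633 shared genes, which are not independent replicates, and no pair had more than 1.58% equal values. The 85 genes together summed to 6098 to 6468 FPKM per library in BES1-RNAi green light and 1590 to 1608 in BES1-RNAi darkness. The sums in wild type were 5057 to 5686 FPKM in green light and 1503 to 1558 in the dark. Of 27 markers of mesophyll, epidermis, guard cells, phloem, xylem and root, 1 was listed for both genotypes and 0 were among the 85, so a share of these cell types in any result was not tested. All 85 matched the RefSeq annotation by locus, 82 as protein-coding genes and 3 as long non-coding RNAs.

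The promoters of 4 genes that the results turn on are printed here because they mark the extremes of the set. BBX32 and GA2OX1 had the largest mean light changes, AT5G42760 the largest difference upward in BES1-RNAi green light and PKS1 the largest downward. A further 3, GBF3, RVE1 and MYB12, were added after a motif search because they hold a G-box and differ in their green-light call. Each window runs 5′ to 3′ on the gene's strand from 250 bases before to 50 bases after the annotated start, in RefSeq TAIR10.1. Capitals mark the G-box CACGTG, the string ACGTG (an ACGT core followed by G) and the GT1 element GGTTAA on either strand. E-boxes and ACGT cores without that G are left in lower case.
BBX32: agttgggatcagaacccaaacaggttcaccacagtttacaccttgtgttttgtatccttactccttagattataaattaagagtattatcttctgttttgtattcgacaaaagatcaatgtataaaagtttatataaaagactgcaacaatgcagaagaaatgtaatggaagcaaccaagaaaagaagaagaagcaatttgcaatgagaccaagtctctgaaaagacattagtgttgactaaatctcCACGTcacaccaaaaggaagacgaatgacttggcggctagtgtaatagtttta
GA2OX1: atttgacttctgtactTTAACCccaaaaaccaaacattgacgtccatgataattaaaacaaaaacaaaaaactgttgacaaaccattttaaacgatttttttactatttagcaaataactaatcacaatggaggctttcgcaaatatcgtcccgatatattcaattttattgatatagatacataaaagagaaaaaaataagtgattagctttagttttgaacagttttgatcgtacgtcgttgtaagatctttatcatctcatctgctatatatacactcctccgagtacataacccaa
AT5G42760: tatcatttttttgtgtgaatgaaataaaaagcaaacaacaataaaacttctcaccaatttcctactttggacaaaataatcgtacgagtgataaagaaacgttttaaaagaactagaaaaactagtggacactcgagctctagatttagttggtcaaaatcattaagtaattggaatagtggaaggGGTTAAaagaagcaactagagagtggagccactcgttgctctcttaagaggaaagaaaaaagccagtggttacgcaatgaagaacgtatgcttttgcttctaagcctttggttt
PKS1: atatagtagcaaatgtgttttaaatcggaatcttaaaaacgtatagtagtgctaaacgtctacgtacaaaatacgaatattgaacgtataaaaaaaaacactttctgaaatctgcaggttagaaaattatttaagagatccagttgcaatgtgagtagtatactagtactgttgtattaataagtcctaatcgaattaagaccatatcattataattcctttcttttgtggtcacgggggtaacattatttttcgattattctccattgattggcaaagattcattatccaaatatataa
GBF3: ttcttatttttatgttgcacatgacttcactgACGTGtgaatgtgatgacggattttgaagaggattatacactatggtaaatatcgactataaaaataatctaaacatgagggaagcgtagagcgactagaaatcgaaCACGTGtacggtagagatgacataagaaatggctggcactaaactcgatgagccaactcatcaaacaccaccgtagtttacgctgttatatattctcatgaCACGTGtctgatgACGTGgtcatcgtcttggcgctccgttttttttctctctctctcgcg
RVE1: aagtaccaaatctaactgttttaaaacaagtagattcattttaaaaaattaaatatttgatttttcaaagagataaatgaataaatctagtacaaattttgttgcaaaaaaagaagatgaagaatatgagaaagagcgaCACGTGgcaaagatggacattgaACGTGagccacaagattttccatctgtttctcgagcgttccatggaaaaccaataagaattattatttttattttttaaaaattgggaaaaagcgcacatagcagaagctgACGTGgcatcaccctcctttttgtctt
MYB12: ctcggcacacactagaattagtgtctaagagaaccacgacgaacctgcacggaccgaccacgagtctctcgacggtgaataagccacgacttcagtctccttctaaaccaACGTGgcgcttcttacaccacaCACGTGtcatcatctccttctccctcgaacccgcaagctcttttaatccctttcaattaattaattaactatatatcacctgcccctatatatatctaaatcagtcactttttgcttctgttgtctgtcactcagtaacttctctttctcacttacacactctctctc
The windows are chr3:7413678-7413977 on the reverse strand for BBX32, chr1:29513051-29513350 on the reverse strand for GA2OX1, chr5:17148558-17148857 on the forward strand for AT5G42760 and chr2:856676-856975 on the reverse strand for PKS1. The others are chr2:18999930-19000229 on the forward strand for GBF3, chr5:5692943-5693242 on the reverse strand for RVE1 and chr2:19476076-19476375 on the forward strand for MYB12. GBF3 holds 2 G-boxes, whose first bases lie 111 and 10 bases before the start, RVE1 holds 1 at 111 bases before and MYB12 1 at 118 bases before. BBX32 has a single ACGTG 3 bases before its start, read on the other strand. PKS1 holds none of the marked motifs in this window, although ACGT followed by other bases occurs in it and in the GA2OX1 and AT5G42760 windows. Of these 7 genes, GBF3 and AT5G42760 were higher in BES1-RNAi green light, RVE1, PKS1 and GA2OX1 lower, and BBX32 and MYB12 did not pass; with median-ratio scaling GBF3 and BBX32 were lower.

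Every one of the 85 genes had all 3 green-light libraries above all 3 dark libraries, in BES1-RNAi as in wild type. The rule itself asks for a light change, so this is a description and carries no test. The same count was not made over all shared genes, so nothing about the 85 is read from it. After median-ratio scaling over the shared genes, 65 of the 85 had a light change above 0 in both genotypes. Without scaling the median light change of all shared genes was 1.29 in BES1-RNAi and 1.15 in wild type. Scaling over these genes divides out change that they have in common. The light change ranged from 1.01 to 5.24 in BES1-RNAi, with a median of 1.70, and from 1.00 to 5.35 in wild type, with a median of 1.57, on the log2 scale of group means plus 1. On the plain FPKM scale the median fold was 4.52 in BES1-RNAi and 3.84 in wild type, and 14 genes exceeded 10-fold in BES1-RNAi and 15 in wild type. The log2 scale with 1 added understates the change of low genes, and near 0 it also narrows differences between the dark groups. PAP1, for example, met the rule with dark means of 0.24 FPKM in BES1-RNAi and 0.0233 in wild type. With 0.1 added in place of 1, 62 of the 85 still met the rule. Mean dark levels spanned 0.0567 to 268 FPKM in BES1-RNAi and 0 to 263 FPKM in wild type. Over both genotypes, 21 genes averaged under 1 FPKM in the dark, 27 between 1 and 10, 34 between 10 and 100, and 3 more than 100.

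**Figure D1:**
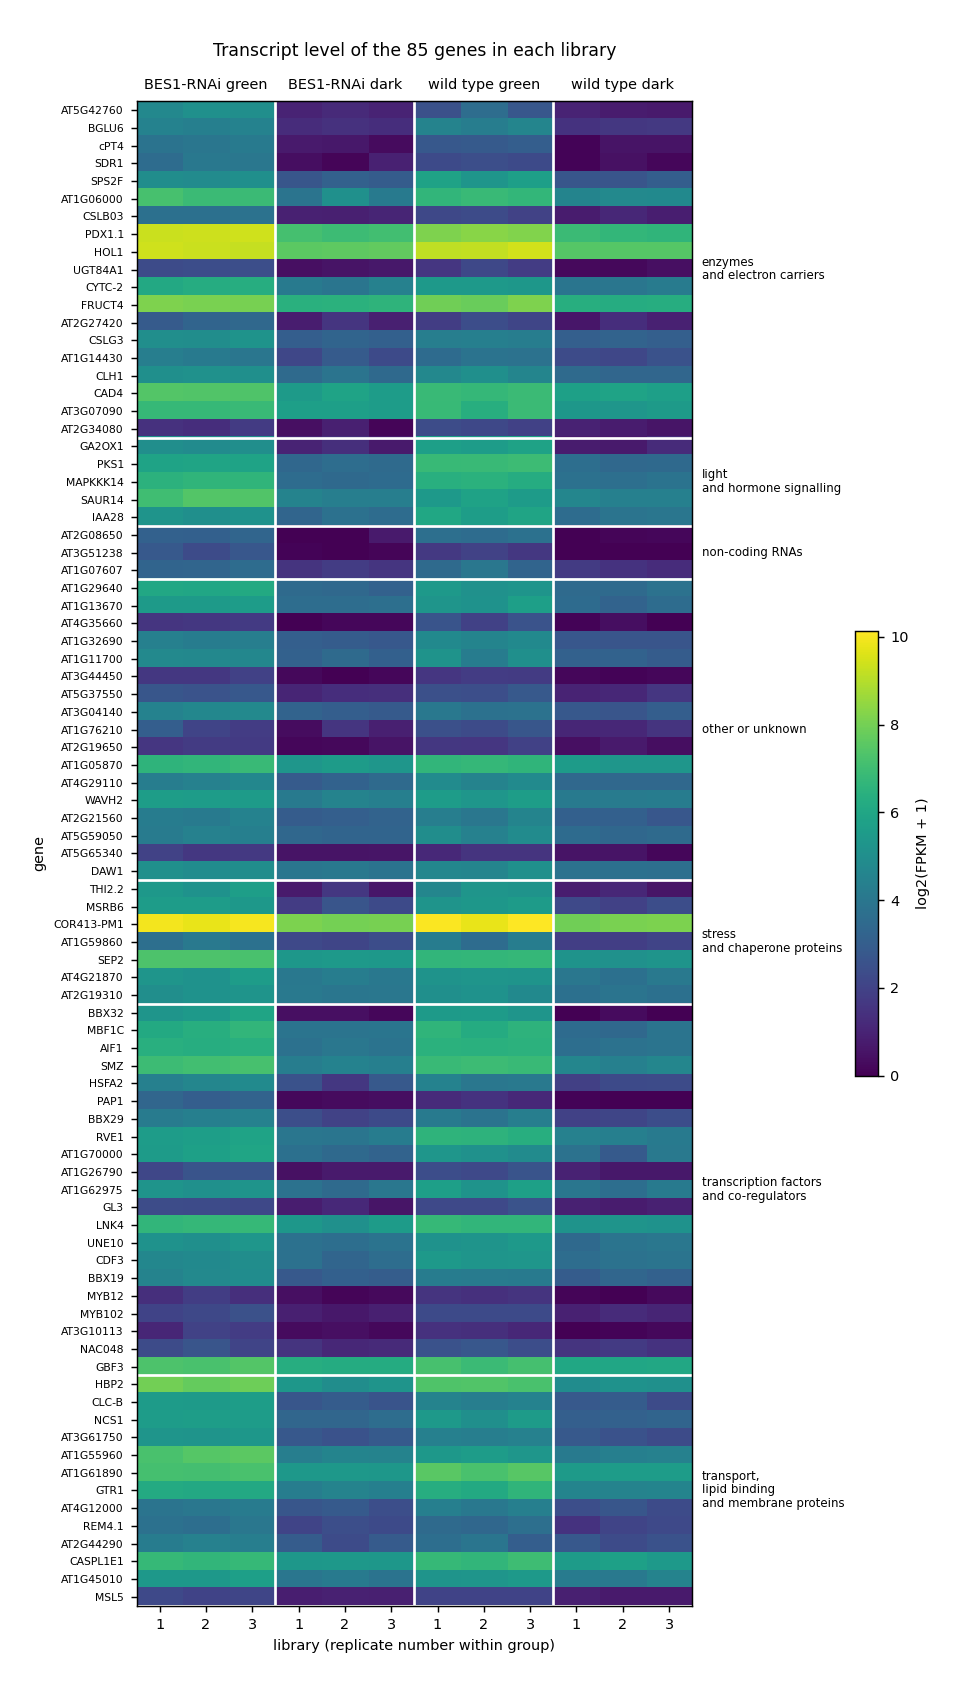
Transcript level of each of the 85 genes (rows, grouped by role) in each of the 12 libraries (columns, 3 per group), coloured by log2(FPKM + 1). Every row is brighter in both green-light blocks than in both dark blocks, and the dark blocks of BES1-RNAi and wild type look alike because the rule held them within 0.3.

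The rule set no fixed limit on the difference between BES1-RNAi and wild type in green light, but it used both green-light means. A gene with a small light change in wild type could not be far lower in BES1-RNAi green light and still meet the rule. Likewise, one with a small light change in BES1-RNAi could not be far higher. On the log2 scale of group means plus 1, this difference equals the difference of the 2 light changes plus the dark difference. The dark difference lay between -0.29 and 0.30. The fitted differences below average the log2 values of single libraries, so they can depart slightly from that sum. In green light 24 of the 85 genes were higher in BES1-RNAi, 13 were lower and 48 did not pass (limma with Benjamini-Hochberg adjustment over 633 genes, threshold 0.05). That is 28.2% higher and 15.3% lower, while over all 633 shared genes 54.7% were higher, 16% lower and 70.6% either. The median difference was 0.13 over the 85 genes, beside 0.46 over all shared genes. The rule limits the dark difference and both light changes, which together make up the green-light difference. Nothing about the 85 as a set is therefore read from these shares or from the intervals that follow. For the 48 genes that did not pass, the 95% interval of the difference lay inside ±1 on the log2 scale in all 48 and inside ±0.5 in 29, and the median distance from the estimate to the bound was 0.31 over the 85 genes.

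The libraries of BES1-RNAi and wild type did not overlap in green light for 31 genes that were higher in BES1-RNAi and 12 that were lower, beside 57.5% and 16.3% of all shared genes. Among the other genes induced in both genotypes, the 193 with a higher dark level in BES1-RNAi had 163 higher and 2 lower in BES1-RNAi green light, with a median of 1.13 (112 higher and 27 lower after median-ratio scaling). The 43 with a lower dark level in BES1-RNAi had 3 higher and 25 lower, with a median of -0.50 (1 higher and 40 lower after scaling). These 2 groups were set apart by the dark difference, which is part of the green-light difference, so their splits partly restate that choice. The plot of dark against green-light differences shows the 85 genes as a narrow upright band between these 2 groups.

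**Figure D2:**
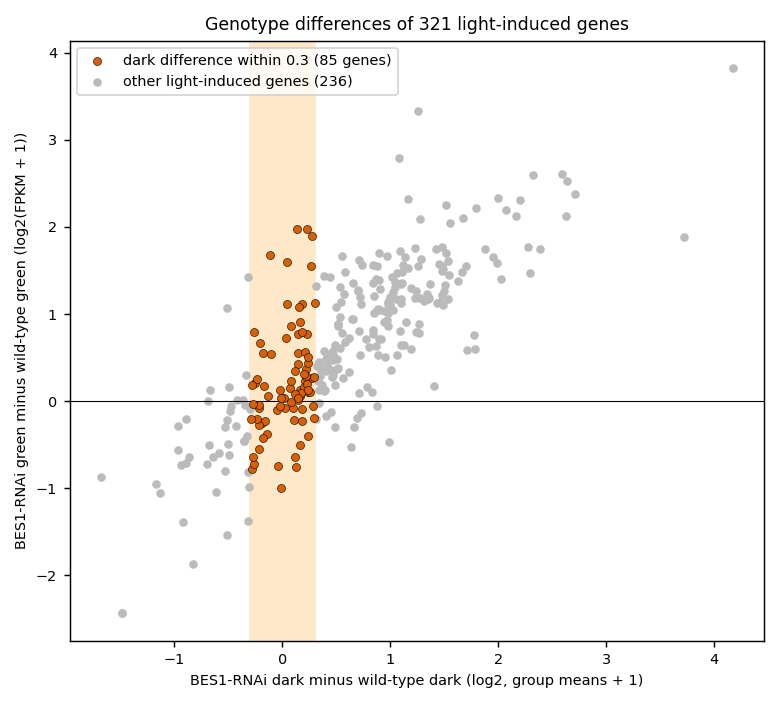
Difference between BES1-RNAi and wild type in green light (vertical axis, log2(FPKM + 1), fitted) against the difference in the dark (horizontal axis, log2 of group means plus 1) for the 321 genes induced at least 1 log2 unit in both genotypes, 1 point per gene. The 85 genes lie in the shaded band within 0.3 of equal dark levels and spread from -0.99 to 1.98 in green light. After median-ratio scaling the dark difference of 50 of the 85 falls left of the band, 34 stay in it and 1 falls right of it.

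The split depends on the scale between libraries, as do the dark differences, which stayed within 0.3 for 34 of the 85 genes after scaling. Values were tested as deposited, without further scaling. Median-ratio scaling presumes that most genes used for it do not change. The shared genes had a median light change of 1.29 in BES1-RNAi and 1.15 in wild type. Their median green-light difference between the genotypes was 0.46, so the scaling also divides out change that they have in common. When each library was instead scaled by the median ratio over the shared genes, 9 of the 85 genes were higher in BES1-RNAi green light and 51 lower, beside 31.3% and 39% of all shared genes, and the median difference over the 85 became -0.48. The 9 higher were AT5G42760, AT1G55960, PAP1, SAUR14, CSLB03, SDR1, PDX1.1, CLC-B and cPT4, and all 9 were higher without scaling too. All 13 genes that were lower without scaling were lower with it. Of the 15 remaining genes called higher without scaling, 14 no longer passed and GBF3 passed as lower. Of the 48 that did not pass without scaling, 37 were lower with it. In all, 37 genes with a difference above 0 turned to below 0, of which 21 passed as lower.

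**Figure D3:**
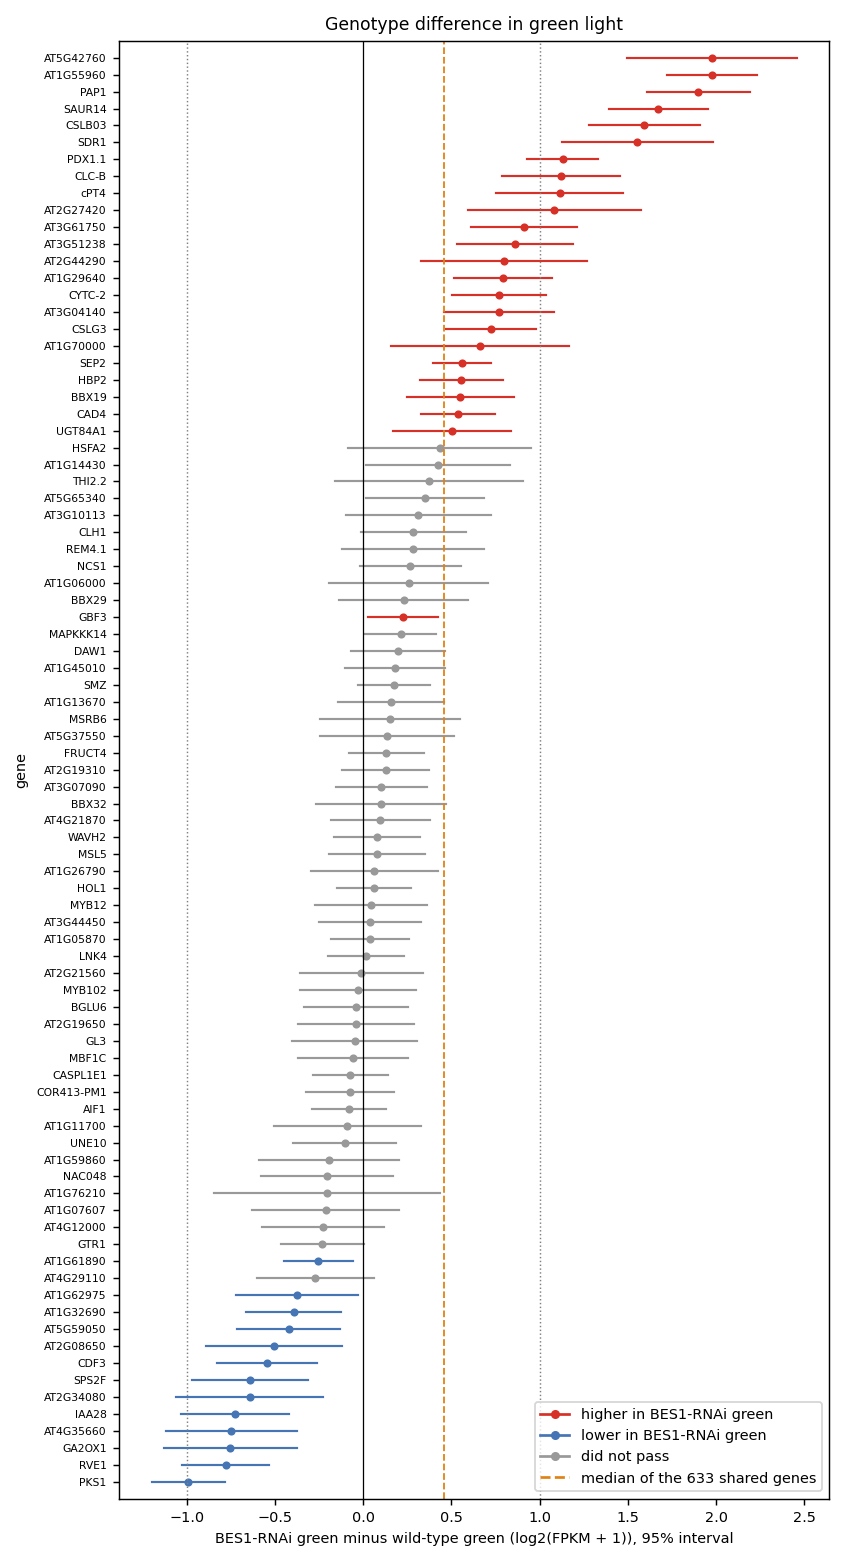
Difference between BES1-RNAi and wild type in green light for each of the 85 genes (rows, sorted), as the fitted log2(FPKM + 1) difference (points) with its 95% interval (bars), from 3 libraries per group. The points run from -0.99 (PKS1) to 1.98 (AT5G42760), with 24 genes higher in BES1-RNAi, 13 lower and 48 that did not pass, and most points lie left of the dashed median of all shared genes at 0.46. After median-ratio scaling 9 were higher and 51 lower, with GBF3 among those lower.

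Light and hormone signalling, a class of 5 genes, held 3 of the 13 genes that were lower in BES1-RNAi green light. Of the 5, 1 was higher, 3 were lower and 1 did not pass (1 higher and 4 lower after scaling). Over all shared genes 54.7% were higher and 16% lower (31.3% and 39% after scaling). These shares also stand beside the class and list counts below. The classes were drawn up with the values known, and the pathway lists with earlier results of these data known. They are used only to order the text, and nothing is read from their counts. PKS1 (AT2G02950, chr2:854077-856725 on the reverse strand) encodes a phytochrome-binding protein of phototropism. It had 57.9, 60.04 and 57.2 FPKM in the BES1-RNAi green-light libraries, against 113, 116 and 122 in wild-type green light. In the dark it had 9.55, 11.3 and 10.4 FPKM in BES1-RNAi and 11.6, 9.77 and 9.99 in wild type. The dark values interleave, whereas each BES1-RNAi green-light value lies far below each wild-type one. The difference was -0.99 (SE 0.10, adjusted p = 1.7e-07), a mean ratio of 0.499, and -1.66 after scaling. PKS1 overlaps the long non-coding RNA AT2G04465 on the opposite strand by 189 bases. The sources used here do not say whether the libraries kept strand, so reads of such pairs cannot be told apart.

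GA2OX1 (AT1G78440, chr1:29511561-29513100 on the reverse strand) encodes a gibberellin 2-oxidase, an enzyme that inactivates growth-promoting gibberellins. It was nearly silent in the dark, with 1.0, 1.58 and 0.68 FPKM in BES1-RNAi and 0.71, 0.66 and 1.37 in wild type. Green light brought 31.1, 28.5 and 30.9 FPKM in BES1-RNAi and 51.4, 47.1 and 56.3 in wild type. All wild-type green-light libraries exceed all BES1-RNAi ones, and both sets stand far above the dark. The green-light difference was -0.75 (95% interval -1.13 to -0.38, adjusted p = 0.0012), and the light fold was 27.8 in BES1-RNAi and 56.5 in wild type. Of the 5 gibberellin genes listed for both genotypes, 1 was higher, 3 were lower and 1 did not pass (0 higher and 4 lower after scaling). GA2OX1 was the only one of them among the 85.

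SAUR14 (AT4G38840) belongs to the small auxin-up RNA family, whose members promote cell expansion. Its BES1-RNAi green-light libraries had 127, 171 and 167 FPKM, against 41.8, 56.4 and 45.5 in wild-type green light. The dark libraries had 21.8, 18.97 and 18.9 FPKM in BES1-RNAi and 24.4, 20.2 and 20.4 in wild type. The lowest BES1-RNAi green-light value is above the highest wild-type one, while the dark values are close and 1 wild-type library is the highest of them. The difference was 1.67 (SE 0.13, adjusted p = 1.5e-08) and 0.99 after scaling.

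IAA28 (AT5G25890), an Aux/IAA repressor of auxin-responsive transcription, was lower in BES1-RNAi green light. It had 36.8, 31.7 and 34.6 FPKM in BES1-RNAi green light, against 65.3, 49.1 and 58.8 in wild-type green light. Its dark values were 8.85, 12.6 and 11.1 FPKM in BES1-RNAi and 10.98, 13.8 and 14.7 in wild type. No green-light value overlaps between the genotypes, and the dark values do. The green-light difference was -0.73 (95% interval -1.03 to -0.42, adjusted p = 0.00028), of which the dark difference of -0.26 is a part. Of 10 auxin-response genes listed for both genotypes, 5 were higher, 2 were lower and 3 did not pass (2 higher and 4 lower after scaling). The shares over all shared genes were 54.7% higher and 16% lower, so nothing is read from this list. MAPKKK14, a protein kinase kinase kinase, had 94.97 ± 5.14 FPKM in BES1-RNAi green light and 81.8 ± 5.25 in wild-type green light (SD, n = 3 each). Its difference of 0.21 did not pass, with 10 added before the log it did (adjusted p = 0.024), and after scaling it was -0.46 (adjusted p = 0.00067).

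**Figure D4:**
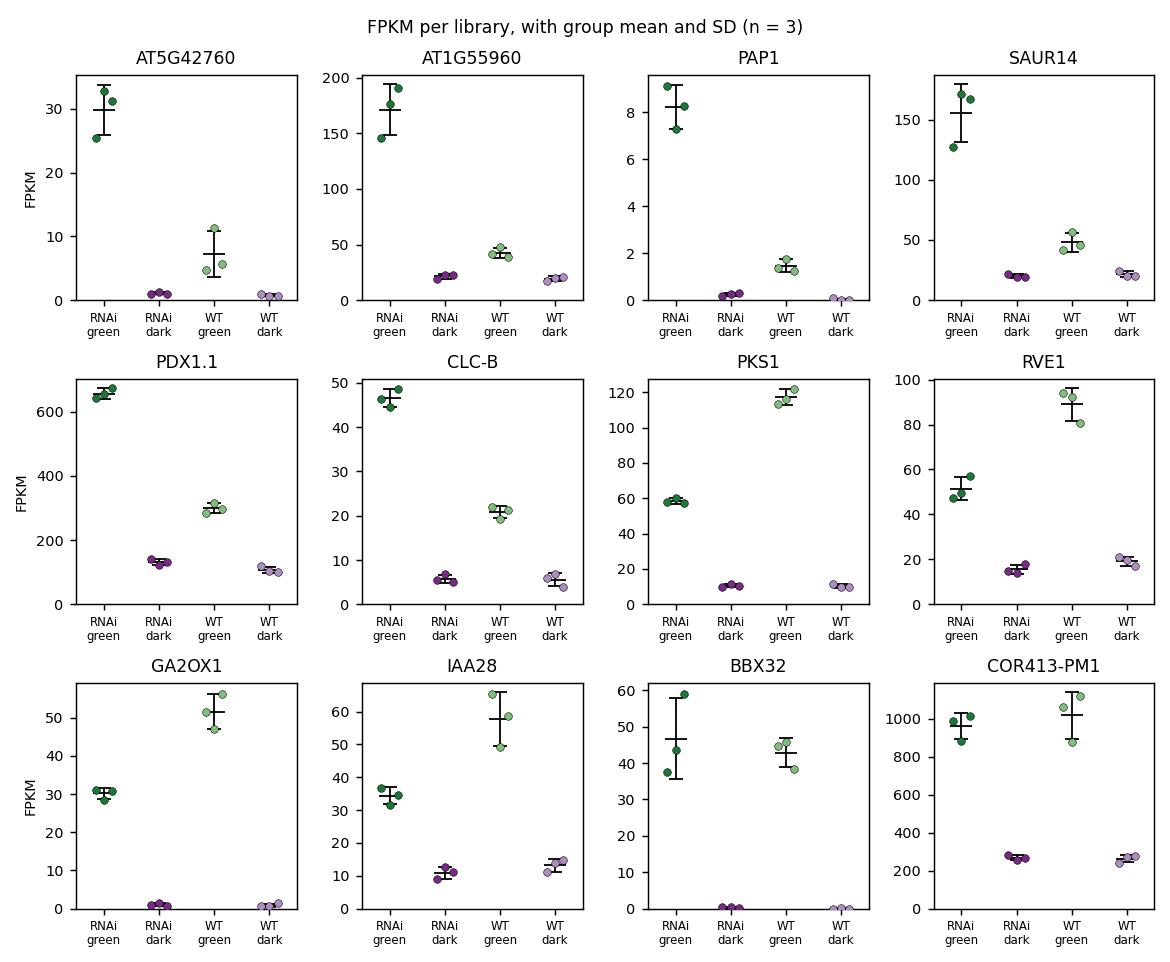
FPKM of 12 of the genes in each library (points), with the group mean (long bar) and SD (n = 3), for BES1-RNAi green and dark and wild-type green and dark; each panel has its own axis from 0. AT5G42760, AT1G55960, PAP1, SAUR14, PDX1.1 and CLC-B are higher in BES1-RNAi green light, PKS1, RVE1, GA2OX1 and IAA28 are lower, and BBX32 and COR413-PM1 overlap between the genotypes. With median-ratio scaling the first 10 keep these calls and BBX32 and COR413-PM1 are lower.

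Transcription factors and co-regulators formed the largest class, with 21 genes, of which 4 were higher, 3 lower and 14 did not pass (1 higher and 14 lower after scaling). BBX32 (AT3G21150, chr3:7412445-7413727 on the reverse strand), a B-box factor that counteracts HY5-dependent photomorphogenesis, had the largest mean light change of the 85 genes. It had 37.6, 43.5 and 59.1 FPKM in BES1-RNAi green light and 44.6, 45.8 and 38.3 in wild-type green light. The dark values were 0.34, 0.33 and 0.13 FPKM in BES1-RNAi and 0, 0.23 and 0 in wild type, where 2 libraries list it at 0. The green-light values of the genotypes overlap, with 1 BES1-RNAi library above all others. The difference was 0.10 (95% interval -0.27 to 0.47, adjusted p = 0.62), and -0.56 after scaling (adjusted p = 0.013), which turns its direction.

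PAP1 (AT1G56650), also known as MYB75, activates anthocyanin synthesis. Its green-light libraries had 9.11, 7.26 and 8.27 FPKM in BES1-RNAi and 1.38, 1.77 and 1.26 in wild type. In the dark they had 0.17, 0.24 and 0.31 FPKM in BES1-RNAi and 0.07, 0 and 0 in wild type. All BES1-RNAi values lie above the wild-type values of the same light condition, and the dark ones are all close to 0. The green-light difference was 1.90 (SE 0.14, adjusted p = 5.4e-09), the largest mean ratio of the 85 at 5.59-fold, and 1.22 after scaling. MYB12 (AT2G47460), which activates flavonol synthesis, had 1.61, 2.57 and 1.58 FPKM in BES1-RNAi green light and 1.9, 1.63 and 1.89 in wild-type green light. Its difference of 0.04 had a 95% interval of -0.28 to 0.36. Of 11 flavonoid and phenylpropanoid genes listed for both genotypes, 10 were higher and 1, MYB12, did not pass (8 higher and 0 lower after scaling). GL3, a bHLH partner of anthocyanin MYB factors, had a difference of -0.05 that did not pass and was lower after scaling (-0.53, adjusted p = 0.013).

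RVE1 (AT5G17300, chr5:5690225-5692992 on the reverse strand) is a MYB-like factor of the CCA1 and LHY family. It had 47.4, 49.5 and 57.3 FPKM in BES1-RNAi green light, against 94.02, 92.2 and 80.6 in wild-type green light. The dark libraries had 14.8, 14.1 and 17.9 FPKM in BES1-RNAi and 21.0, 19.6 and 17.04 in wild type. The green-light values are well apart, and the dark values overlap with most BES1-RNAi values on the low side. The difference was -0.78 (adjusted p = 1.8e-05), of which the dark difference of -0.28 is a part. LNK4 (AT5G06980), of a family of clock-linked co-regulators, had 101, 106 and 108 FPKM in BES1-RNAi green light and 108, 101 and 102 in wild-type green light. Those values interleave, with a difference of 0.02 (95% interval -0.20 to 0.23) and of -0.66 after scaling. CDF3 (AT3G47500), a DOF factor of the group that delays flowering, was lower, with 25.1, 27.1 and 30.01 FPKM in BES1-RNAi green light and 44.02, 37.8 and 39.5 in wild-type green light (difference -0.55, adjusted p = 0.0016). Of 12 clock genes listed for both genotypes, 6 were higher, 2 lower and 4 did not pass (0 higher and 7 lower after scaling). This stands beside 54.7% higher and 16% lower over all shared genes (31.3% and 39% after scaling).

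Besides BBX32, the B-box genes BBX19 and BBX29 were among the 85. BBX19 had 25.97 ± 3.78 FPKM in BES1-RNAi green light and 17.3 ± 0.711 in wild-type green light (SD, n = 3 each), a difference of 0.55 (adjusted p = 0.0026) that was -0.10 and did not pass after scaling. BBX29 had 19.3 ± 1.72 FPKM in BES1-RNAi green light and 16.5 ± 2.90 in wild-type green light, and its difference of 0.23 did not pass, nor did that of -0.41 after scaling. Of 12 B-box genes listed for both genotypes, 7 were higher, 1 lower and 4 did not pass (2 higher and 4 lower after scaling). This stands beside 54.7% higher and 16% lower over all shared genes. GBF3 (AT2G46270), a bZIP factor that binds the G-box, had 156, 146 and 170.4 FPKM in BES1-RNAi green light and 144, 119 and 141 in wild-type green light. The gap between the genotypes is narrow, and the difference of 0.23 (adjusted p = 0.04) turned to -0.45 with scaling (adjusted p = 0.00023). It also did not pass without BES1-RNAi green replicate 1 or 3 or wild-type green replicate 2, with an adjusted p of 0.077, 0.16 and 0.17, or in the green-light libraries alone (adjusted p = 0.059).

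Several strongly induced regulators did not pass in green light. AIF1, a bHLH protein that opposes brassinosteroid-promoted growth, had 83.7, 78.6 and 83.7 FPKM in BES1-RNAi green light and 86.5, 84.2 and 90.03 in wild-type green light. MBF1C, a co-activator known from the heat response, had 70.7, 81.6 and 101 FPKM in BES1-RNAi green light and 97.9, 73.6 and 91.5 in wild-type green light. SMZ, an AP2-type repressor of flowering, had 123, 132 and 145 FPKM in BES1-RNAi green light and 114, 122 and 117 in wild-type green light. The BES1-RNAi values sit just below the wild-type ones for AIF1, span them for MBF1C and sit just above them for SMZ. The 95% intervals of the differences were -0.29 to 0.13 for AIF1, -0.37 to 0.26 for MBF1C and -0.03 to 0.38 for SMZ. After scaling all 3 were lower, at -0.76 for AIF1, -0.73 for MBF1C and -0.50 for SMZ, whose direction turned (adjusted p = 6.8e-06, 0.00025 and 0.00013). These 3 genes were picked after their values were seen. AT1G70000, a MYB-like factor, was higher (0.66, adjusted p = 0.021). It no longer passed without replicate 3 of BES1-RNAi green or of wild-type green, and was -0.01 after scaling. AT1G62975, a bHLH factor, was called lower at -0.38 although its green-light libraries overlap, and its call ended without any 1 of 7 libraries, all 3 of BES1-RNAi green, wild-type green replicates 1 and 3, and replicate 1 of either dark group.

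Enzymes and electron carriers were the class with the most genes higher in BES1-RNAi green light, 10 of 19, with 2 lower and 7 that did not pass (5 higher and 7 lower after scaling). That was 52.6% higher and 10.5% lower, beside 54.7% and 16% of all shared genes. The share higher was thus no larger than over all shared genes. AT5G42760 (chr5:17148808-17150451 on the forward strand), annotated as a leucine carboxyl methyltransferase, had 25.4, 32.8 and 31.3 FPKM in BES1-RNAi green light and 4.76, 11.3 and 5.66 in wild-type green light. Its dark values were 0.99, 1.3 and 1.0 FPKM in BES1-RNAi and 1.02, 0.71 and 0.65 in wild type. Wild-type green replicate 2 stands above the other wild-type libraries, and still all BES1-RNAi green-light values are higher. The difference was 1.98 (SE 0.23, adjusted p = 9.4e-07), the largest of the 85 on the log2 scale, and 1.29 after scaling. AT5G42760 overlaps AT5G42765 by 214 bases and the long non-coding RNA AT5G06385 by 388 bases on the opposite strand.

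PDX1.1 (AT2G38230), an enzyme of vitamin B6 synthesis, had 641, 654 and 674 FPKM in BES1-RNAi green light and 285, 317 and 296 in wild-type green light. Its dark libraries had 141, 123 and 132 FPKM in BES1-RNAi and 119, 104 and 99.2 in wild type. The green-light groups are far apart, and the dark groups are apart too, by the largest dark difference the rule let in. The green-light difference was 1.13 (adjusted p = 2.7e-08) and 0.44 after scaling. CSLB03, a cellulose synthase-like protein, had 12.3, 12.4 and 13.1 FPKM in BES1-RNAi green light and 3.64, 3.91 and 2.99 in wild-type green light (difference 1.59, adjusted p = 8.2e-08). SDR1, annotated with an NAD(P)-binding Rossmann fold, had 11.1, 15.5 and 15.1 FPKM in BES1-RNAi green light and 3.84, 4.46 and 3.82 in wild-type green light (difference 1.55, adjusted p = 3.8e-06). cPT4, of the undecaprenyl pyrophosphate synthetase family, had 13.4, 14.7 and 17.3 FPKM in BES1-RNAi green light and 5.86, 6.3 and 7.14 in wild-type green light (difference 1.11, adjusted p = 2.1e-05). After scaling the differences were 0.93 for CSLB03, 0.89 for SDR1 and 0.47 for cPT4, and all 3 still passed. In each of these 3 genes every BES1-RNAi green-light library exceeds every wild-type one.

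SPS2F (AT5G11110), a sucrose phosphate synthase, was one of the 2 enzymes that were lower. It had 30.4, 28.8 and 31.8 FPKM in BES1-RNAi green light and 55.6, 38.1 and 51.9 in wild-type green light. The dark values were 5.54, 7.75 and 6.61 FPKM in BES1-RNAi and 5.58, 5.43 and 7.14 in wild type. Wild type spreads widely in green light and still lies wholly above BES1-RNAi, while the dark values interleave. The difference was -0.64 (95% interval -0.97 to -0.31, adjusted p = 0.0015). UGT84A1, a glucosyltransferase of phenylpropanoid metabolism, was higher at 0.50 (adjusted p = 0.0094). It did not pass without wild-type green replicate 1 (adjusted p = 0.061), with 0.1 in place of 1 added before the log (adjusted p = 0.071) or after scaling, where its value was -0.02. CYTC-2, a cytochrome c of the mitochondrial electron transport chain, had 73.5 ± 5.22 FPKM in BES1-RNAi green light and 42.6 ± 2.198 in wild-type green light (SD, n = 3 each, adjusted p = 4.2e-05). CAD4, a cinnamyl alcohol dehydrogenase of lignin synthesis, had 165 ± 4.38 FPKM in BES1-RNAi green light and 113 ± 6.52 in wild-type green light (adjusted p = 0.00014). Neither passed after scaling, with 0.09 for CYTC-2 and -0.15 for CAD4, and both were picked after their values were seen.

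Among the 7 enzymes that did not pass were 2 of the 5 genes with the highest dark levels, HOL1 and FRUCT4, and the strongly induced BGLU6. HOL1, a methyltransferase that forms methyl halides, had 665, 638 and 608 FPKM in BES1-RNAi green light and 563, 585 and 686 in wild-type green light. FRUCT4, a vacuolar invertase, had 289, 275 and 261 FPKM in BES1-RNAi green light and 241, 224 and 291 in wild-type green light. BGLU6, a beta glucosidase, had 21.4, 19.8 and 21.2 FPKM in BES1-RNAi green light and 22.2, 18.8 and 23.4 in wild-type green light. The values of the genotypes overlap in all 3. The differences were 0.06 for HOL1, 0.13 for FRUCT4 and -0.04 for BGLU6, and after scaling -0.62, -0.55 and -0.68 in the same order, where all 3 passed as lower.

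Transport, lipid-binding and membrane proteins had 5 genes of 13 higher in BES1-RNAi green light, 1 lower and 7 that did not pass (2 higher and 7 lower after scaling). AT1G55960 (chr1:20927643-20930209 on the reverse strand), annotated in the polyketide cyclase and lipid transport superfamily, had 146, 176 and 191 FPKM in BES1-RNAi green light and 41.3, 47.5 and 39.1 in wild-type green light. In the dark it had 19.0, 22.7 and 22.4 FPKM in BES1-RNAi and 17.3, 19.8 and 21.1 in wild type. The wild-type light step is small beside the BES1-RNAi one, from dark levels that overlap. The difference was 1.98 (SE 0.12, adjusted p = 1.1e-09) and 1.29 after scaling, and the light fold was 8.02 in BES1-RNAi and 2.2 in wild type. CLC-B (AT3G27170), a chloride channel family protein, had 46.4, 44.5 and 48.7 FPKM in BES1-RNAi green light and 22.01, 19.3 and 21.4 in wild-type green light. Its dark values were 5.48, 6.79 and 5.13 FPKM in BES1-RNAi and 6.05, 6.79 and 3.97 in wild type. Dark values overlap and green-light values do not, with a difference of 1.12 (adjusted p = 9.1e-06) and of 0.45 after scaling (adjusted p = 0.02). GTR1, a glucosinolate transporter, had 68.95 ± 2.21 FPKM in BES1-RNAi green light and 81.9 ± 13.8 in wild-type green light (SD, n = 3 each). Its difference of -0.23 did not pass, but after scaling GTR1 was lower at -0.90 (adjusted p = 3.7e-06). AT1G61890, a MATE efflux protein, was lower at -0.25 (adjusted p = 0.022), and its call ended without any 1 of 4 libraries, BES1-RNAi green replicates 1 and 2 and wild-type green replicates 1 and 3.

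Of 7 stress and chaperone proteins, 1 was higher and 6 did not pass (0 higher and 5 lower after scaling). COR413-PM1 (AT2G15970), a cold-regulated plasma membrane protein, had the highest level of the 85 genes. Its green-light libraries had 987, 886 and 1017 FPKM in BES1-RNAi and 1061, 878 and 1119 in wild type. In the dark it had 281, 255 and 268 FPKM in BES1-RNAi and 240.3, 271 and 277 in wild type. The genotypes overlap in both conditions. The green-light difference was -0.08 (95% interval -0.33 to 0.17), and -0.76 after scaling, where it passed as lower. THI2.2, a thionin, had 41.1, 35.2 and 50.2 FPKM in BES1-RNAi green light and 24.3, 38.0 and 35.4 in wild-type green light. In the dark THI2.2 had 1.11 ± 0.871 FPKM in BES1-RNAi and 0.807 ± 0.356 in wild type (SD, n = 3 each). Its libraries spread widely and overlap, and the difference of 0.37 had a 95% interval of -0.16 to 0.91, turned to -0.29 after scaling without passing, and passed as higher with 10 added before the log (adjusted p = 0.036).

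MSRB6, a methionine sulfoxide reductase that repairs oxidised proteins, had 47.7, 47.2 and 41.7 FPKM in BES1-RNAi green light and 36.5, 39.9 and 46.7 in wild-type green light, a difference of 0.15 that became -0.51 after scaling. SEP2 (AT2G21970), a stress-enhanced thylakoid protein related to light-harvesting proteins, was the higher gene of the class. It had 156, 157 and 148 FPKM in BES1-RNAi green light and 101, 105 and 106 in wild-type green light. The 2 groups are tight and apart, with a difference of 0.56 (adjusted p = 8e-06) that was -0.12 and did not pass after scaling. All 5 photoprotection genes listed for both genotypes were higher, 4 of them after scaling. HSFA2, a heat shock factor, had 20.1, 24.2 and 27.9 FPKM in BES1-RNAi green light and 21.3, 15.1 and 16.3 in wild-type green light, with a difference of 0.43 that did not pass and was -0.22 after scaling. It passed as higher with 10 added before the log (adjusted p = 0.023) and in the green-light libraries alone (adjusted p = 0.032). Of 5 heat shock genes listed for both genotypes, 2 were lower and 3 did not pass, and of 5 cold-response genes 2 were higher, 2 were lower and 1 did not pass (after scaling 4 heat shock and 3 cold-response genes were lower and 2 cold-response genes higher).

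The 3 non-coding RNAs each lie over a protein-coding gene on the opposite strand that was listed for both genotypes as well. AT3G51238 (chr3:19025110-19026779 on the reverse strand) covers 1588 bases of F3H, the flavanone 3-hydroxylase gene. It had 6.08, 4.02 and 5.77 FPKM in BES1-RNAi green light and 2.2, 3.02 and 2.13 in wild-type green light, and was listed at 0 in all 3 wild-type dark libraries. F3H had 209 ± 21.7 FPKM in BES1-RNAi green light and 74.7 ± 2.94 in wild-type green light (SD, n = 3 each). In the dark F3H had 7.07 ± 1.47 FPKM in BES1-RNAi and 0.643 ± 0.174 in wild type. As strand is not stated, reads of AT3G51238 and F3H cannot be told apart. AT3G51238 was higher at 0.86 (adjusted p = 0.00011) and did not pass after scaling (0.29). AT1G07607 lies within AT1G50020, and its difference of -0.21 did not pass, but after scaling AT1G07607 was lower at -0.80 (adjusted p = 0.0022).

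AT2G08650 (chr2:14393410-14394346 on the forward strand) and the cysteine proteinase gene AT2G34080 overlap by 937 bases on opposite strands, and both were among the 85. Both also lie within the annotated span of AT2G34110, a protein-coding gene not listed for both genotypes, which has the strand of AT2G08650 and shares 937 bases with it and 1678 with AT2G34080. AT2G08650 had 7.8, 7.61 and 8.77 FPKM in BES1-RNAi green light and 12.02, 10.8 and 12.7 in wild-type green light. AT2G34080 had 1.7, 1.53 and 2.42 FPKM in BES1-RNAi green light and 4.09, 3.52 and 2.88 in wild-type green light. Both were lower with no overlap, by -0.50 (adjusted p = 0.021) and -0.64 (adjusted p = 0.0075), but reads of these genes cannot be told apart and the calls are not independent. The dark difference was 0.17 for AT2G08650 and -0.27 for AT2G34080, and it is a part of the green-light difference. AT2G08650 did not pass without BES1-RNAi green replicate 1 or 2 or wild-type green replicate 3. With 0.1 in place of 1 added before the log, neither passed, with an adjusted p of 0.43 for AT2G08650 and 0.11 for AT2G34080.

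Among the 17 remaining genes, of other or unknown function, 2 were higher, 3 lower and 12 did not pass (0 higher and 12 lower after scaling). AT1G29640, a DUF584 protein, had 66.4 ± 3.33 FPKM in BES1-RNAi green light and 38.1 ± 4.93 in wild-type green light (SD, n = 3 each, difference 0.79, adjusted p = 5e-05). AT3G04140, an ankyrin repeat protein, was higher at 0.77. After scaling neither passed, at 0.12 for AT1G29640 and 0.12 for AT3G04140. AT4G35660 had 1.92, 2.16 and 2.34 FPKM in BES1-RNAi green light and 5.12, 2.93 and 5.07 in wild-type green light, and values of at most 0.31 in the dark. It was lower at -0.75 (adjusted p = 0.0012), but not with 0.1 added before the log (adjusted p = 0.094). The other 2 lower genes were AT1G32690 (-0.40) and AT5G59050 (-0.42), whose call ended without BES1-RNAi green replicate 1 or wild-type green replicate 1 or 3.

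The light changes of the 2 genotypes can be set side by side as a description, since the rule used them. They were within 0.5 of each other for 58 of the 85 genes, larger in BES1-RNAi by more than 0.5 for 20 and smaller by more than 0.5 for 7. Differences beyond 1 were found for 8 genes, all with the larger change in BES1-RNAi. The median of the BES1-RNAi minus wild-type light change was 0.0561 over the 85 and 0.1228 over all shared genes. A lean toward BES1-RNAi was therefore not particular to the 85. Across the 85 genes, which are not independent replicates and were chosen on these values, the light changes correlated with Pearson's r = 0.739 and Spearman's rho = 0.588, beside 0.928 and 0.794 over all 633 shared genes. Dark libraries of BES1-RNAi and wild type overlapped for 65 of the 85 genes and did not for 20, beside 69% of all shared genes without overlap, and nothing is read from this because the rule held the dark groups close. The dark difference was above 0 for 54 and below 0 for 31.

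**Figure D5:**
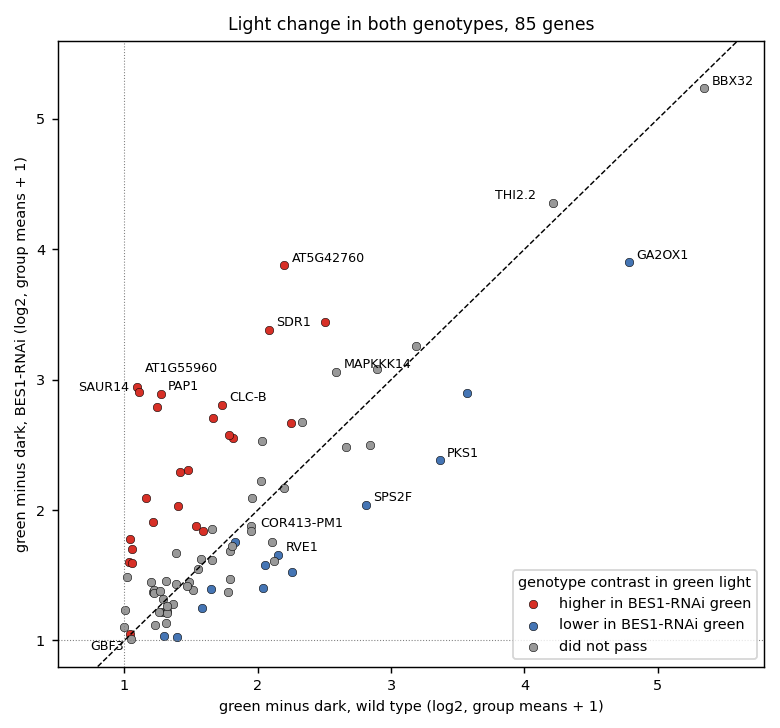
Light change in BES1-RNAi (vertical axis) against wild type (horizontal axis) for the 85 genes, each the difference of log2(group mean FPKM + 1) between green light and dark; the dashed line marks equal changes, dotted lines the minimum of 1, and colours the call in green light without scaling. AT5G42760, AT1G55960, PAP1 and SAUR14 lie furthest above the line, PKS1, GA2OX1 and SPS2F below it, and BBX32 and THI2.2 near it at the upper end. After median-ratio scaling 9 genes were higher in green light, 51 lower, and GBF3 changed from higher to lower.

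At the edges of the rule, neighbours inside and outside differed little. For the light change in BES1-RNAi, DAW1 (1.01) and AT2G34080 (1.03) lay just inside and GA2OX8 (0.995) and AIRP2 (0.971) just outside. For wild type, NAC048 and AT5G65340 (both 1.00) were inside and MYB95 (0.98) and SIP1 (0.97) outside. At the upper dark limit PDX1.1 (0.299) and AT1G59860 (0.292) were inside, and AT3G21670 (0.308) and CT-BMY (0.315) outside. At the lower limit NAC048 (-0.289) and RVE1 (-0.284) were inside, and CYP711A1 (-0.302) and tny (-0.305) outside.

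The 85 genes lay on all 5 nuclear chromosomes, with 21, 18, 18, 14 and 14 genes on chromosomes 1 to 5. The median transcript length was 1390 bases, beside 1553 over the shared genes, and 22 overlapped another annotated gene, as did 192 of the 633 shared genes. Pathway lists written with earlier results known held 0 of the 85 among photosynthesis, chlorophyll and carotenoid genes. Of those genes listed for both genotypes, all 3 photosynthesis, all 2 chlorophyll and all 4 carotenoid genes were higher in BES1-RNAi green light, with and without scaling. Of 16 light-signalling genes listed for both, PKS1 among them, 8 were higher, 2 lower and 6 did not pass (4 higher and 6 lower after scaling). The shares over all shared genes were 54.7% higher and 16% lower.

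In all, 9 motifs were searched on both strands of the 300-base windows of the 82 protein-coding genes, the 615 shared protein-coding genes and all 27443 protein-coding genes of the annotation. The string ACGTG, an ACGT core followed by G, was in 47.6% of the 82 windows, in 42.4% of the shared genes and in 26.7% of all genes. It was in 11 of 23 windows of genes that were higher in BES1-RNAi green light, 6 of 12 lower ones and 22 of 47 that did not pass. The G-box CACGTG, which contains that core, was in 9.76% of the 82 windows, beside 16.3% of the shared genes and 7.68% of all genes. Its 8 holders were GBF3 and CYTC-2, which were higher, RVE1 and AT1G32690, which were lower, and BGLU6, HSFA2, REM4.1 and MYB12, which did not pass. The brassinosteroid response element core CGTGNG, which can overlap a G-box, was in 23.2% of the 82 windows, beside 20.3% and 15.2%. The E-box CANNTG, of which the G-box is 1 form, was in 62.2%, beside 67.6% and 61.7%.

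The I-box GATAAG was in 9.76% of the 82 windows, beside 16.9% of the shared genes and 14.6% of all genes, and the GT1 element GGTTAA in 20.7% (17 of 82), beside 107 of 615 shared genes and 16.7% of all. The evening element core AAATATCT was in 6.1%, beside 8.13% and 5.65%, and the CCA1-binding site AAAAATCT in 7.32%, beside 7.8% and 7.88%. The FHY3/FAR1 site CACGCGC was in 0 of the 82 windows, beside 1.46% and 1.34%. These are matches of letters in fixed windows, with no test.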

How the data were processed

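RNA-seq covered 4 groups of 3 libraries. The deposited values are FPKM per gene and library, given to 2 decimals by the authors. Per the submitters' processing notes, the tools were DESeq 1.18.0, Bowtie2, TopHat, Cufflinks, HISAT2 2.2.1.0 and Trimmomatic 0.36, with genome build TAIR10. Roles, order, the filter behind the gene lists, strand and the treatment of multiply mapped reads are not stated in those notes or the labels. FPKM are relative to a library's total, so abundant RNAs that change shift all others. Depth is unknown, and no counting intervals are given.

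The members followed from group means as described in the report, with 1 FPKM added before log2. The members, pathway lists and named genes were chosen with earlier results of these data known. BES1-RNAi green light minus wild-type green light was tested on log2(FPKM + 1) by limma's trended fit (limma 3.58.1, R 4.3.3) over the 633 shared genes and all 12 libraries. The test was two-sided, p-values were adjusted by Benjamini-Hochberg with a threshold of 0.05, and the script was tested on simulated data. Named genes are the 8 higher and 8 lower with the largest difference among those that passed, the 10 with the largest mean light change, the 5 with the highest dark level, up to 4 per pathway list, and the neighbours of each threshold. Other genes were named after their values were seen. Scaled values divide each library by its median ratio over the shared genes. Other alternatives were a pseudocount of 0.1 or 10, a mean of at least 1 FPKM, limma without the trend, green-light libraries alone, a replicate block and leaving out each library. Gene names and promoter windows come from RefSeq TAIR10.1, matched by locus, since the files carry no coordinates.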

Additional observations from a re-analysis of the deposited data

How the results depend on the processing

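Median-ratio scaling over the shared genes changed the results most. It gave 9 genes higher and 51 lower in BES1-RNAi green light, 198 and 247 over all shared genes, a median over the 85 of -0.48, and 16 genes that met the rule, 9 of them among the 85. The median of all shared genes shifted to -0.11. Of the 85 genes, 37 turned from above to below 0, 21 of them passing as lower. Among those chosen by the naming rule that passed with or without scaling, directions turned for BBX32 (-0.56), MSRB6 (-0.51), MAPKKK14 (-0.46), HOL1 (-0.62), FRUCT4 (-0.55), GBF3 (-0.45), BBX19 (-0.10), LNK4 (-0.66), SEP2 (-0.12), UGT84A1 (-0.024) and DAW1 (-0.46). The library factors were 1.95 to 2.18 in BES1-RNAi green light and 1.24 to 1.28 in wild-type green light. In the dark they were 0.74 to 0.79 in BES1-RNAi and 0.51 to 0.53 in wild type. They differ by light and genotype, so the scaling divides out change that the shared genes have in common. Why the factors differ was not tested.

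A dark window of 0.2 or 0.5 gave 47 or 135 genes, and a light change of at least 1.5 gave 40. A pseudocount of 0.1 gave 72 genes and one of 10 gave 57, of which 62 and 33 were among the 85. With the 85 genes kept, a pseudocount of 0.1 gave 23 higher and 9 lower, one of 10 gave 30 and 13, a mean of at least 1 FPKM 24 and 13, limma without the trend 24 and 12, and the green-light libraries alone 26 and 13.

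Leaving out each library in turn gave 23 to 28 higher and 9 to 17 lower genes, 330 to 353 and 90 to 114 over all shared genes, a median of 0.080 to 0.17 and 79 to 92 genes that met the rule. Of the calls, 21 of 24 higher and 9 of 13 lower passed in all 12 such fits. The exceptions were AT1G70000, GBF3, UGT84A1, AT1G61890, AT1G62975, AT5G59050 and AT2G08650.

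Libraries with the same replicate number correlated in their deviations from the group means at -0.17 to 0.11 over 18 pairs, beside -0.13 to 0.24 over 36 pairs with different numbers, so the numbers are not shown to pair the libraries. With the number as a replicate block, 24 genes were higher and 13 lower, and 343 and 101 over all shared genes. Unknown depth limits the genes under 1 FPKM in the dark, where 8 of the 85 are listed at 0 in at least 1 library.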
